A study of Mus musculus with 360 samples.

Results

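The integrated stress response regulators described here are 10 mouse genes, taken by symbol from the 24781 genes of the expression table: Atf4, Atf5, Atf3, Ddit3, Cebpg, Trib3, Chac1, Sesn2, Ddit4 and Ppp1r15a. They were followed in 360 single cells of C1498, a mouse line labelled as acute myeloid leukemia. Cultures were held at 45 °C for 10 min, or at 37 °C as the control, and an automated imaging and picking instrument collected cells before heating and then at 1, 5, 10 and 15 h. The 37 °C groups held 11, 11, 6, 6 and 11 cells in that order. The 45 °C arm held 6 cells before heating, and 309 afterwards: 13 at 1 h, 52 at 10 h, 21 at 15 h and all others, 61.9% of the series, at 5 h. The 45 °C cells picked before heating had not yet been heated, so 6 of the 10 groups, with 51 cells, were unheated. No label names a culture, a clone or a passage, so each group was read as 1 sample.

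In the integrated stress response, kinases that sense amino acid shortage, misfolded protein in the endoplasmic reticulum, double-stranded RNA or lack of heme phosphorylate the translation factor eIF2. Most translation then slows, while the mRNA of the transcription factor ATF4 is translated more efficiently. ATF4 protein switches on genes for amino acid uptake, synthesis and tRNA charging, further transcription factors such as CHOP (the product of Ddit3), and brakes on the response itself. Because ATF4 is controlled largely at translation, the level of Atf4 mRNA is not a measure of ATF4 protein. Heat shock activates a separate factor, HSF1, which drives chaperone genes.

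Levels are given as CPM, the share of all UMIs (counted molecules) of a group's cells that fell on a gene, scaled to 1e+06. Group totals ran from 173274 UMIs (37 °C 10 h) to 6809101 UMIs (45 °C 5 h), so that 1 UMI was worth 5.77 CPM in the former and 0.147 CPM in the latter. Median depth per cell was lowest in 45 °C 10 h (18741 UMIs) and highest in 37 °C cells before treatment (40544 UMIs). All intervals are 95% intervals. Those on levels and ratios cover the counting of molecules only, those on shares the counting of cells, and neither contains the spread between cultures. For that reason no p-value is given, and "higher" and "lower" describe these groups of cells. The general leukocyte markers Ptprc, Coro1a and Laptm5 were present in every group, summing to between 1686 and 2046 CPM in unheated groups and between 1282 and 1996 CPM after heating. Of 6 myeloid markers, 5 were at 0 in all cells and the other, Mpo, had 14 UMIs, all in 45 °C 5 h cells, while the T cell receptor genes Cd3e and Cd3g were present in every group. The other 4 T cell markers were low, with Cd3d, Cd247, Thy1 and Lck each at 13.2 CPM or less in any group and the latter 3 at 0 in several. The markers therefore went against the myeloid part of the label. T cell markers, almost all of them Cd3e and Cd3g, summed to between 363 and 470 CPM in unheated groups and between 314 and 470 CPM after heating, and the 4 B cell markers to 0 and to at most 6.02 CPM (45 °C 5 h). The part of these differences in the values below was not tested.

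The promoters of 3 of the 10 regulators held the C/EBP-ATF composite element, the sequence that ATF4 binds together with a C/EBP partner, and they are shown because their genes followed different courses: Atf3 was almost undetected, Chac1 was low 1 h after heating and Trib3 was at 0 at 15 h. The windows were those of RefSeq on GRCm38.p6, 250 bases before to 50 bases after each start, and all 10 genes matched (11 windows). The element was searched as TGATGNAA on both strands, and it occurred in 3.97% of 32851 windows of all genes. Capitals mark the match, each sequence reads 5′ to 3′ on the gene's own strand, and the matches lie on the opposite strand. Chac1 lies at chr2:119350992-119351241 on the plus strand with the match beginning at position -193 from the start. Atf3 lies at chr1:191183334-191183583 on the minus strand with the match 110 bases before the start. For Trib3, 30 bases are shown, chr2:152344028-152344057 on the minus strand, with the match 15 bases after the start.
Chac1: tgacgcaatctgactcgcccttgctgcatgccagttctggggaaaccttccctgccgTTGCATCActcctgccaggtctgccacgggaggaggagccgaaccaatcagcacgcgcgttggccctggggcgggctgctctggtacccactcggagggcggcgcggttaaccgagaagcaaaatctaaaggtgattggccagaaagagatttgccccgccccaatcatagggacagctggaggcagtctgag
Atf3: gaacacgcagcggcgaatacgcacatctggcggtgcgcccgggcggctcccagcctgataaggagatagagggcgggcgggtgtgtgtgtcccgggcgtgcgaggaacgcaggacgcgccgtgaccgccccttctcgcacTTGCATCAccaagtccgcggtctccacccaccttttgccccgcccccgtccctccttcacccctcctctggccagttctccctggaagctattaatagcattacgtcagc
Trib3: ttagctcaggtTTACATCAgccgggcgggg

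A second motif, the cyclic AMP response element TGACGTCA, which is its own reverse complement, was found in the promoter of Ppp1r15a, at chr7:45526269-45526518 on the minus strand, 12 bases before the start. It occurred in 1.79% of all windows, and it is shown because Ppp1r15a was the member whose level 5 and 10 h after heating stood above every unheated group.
Ppp1r15a: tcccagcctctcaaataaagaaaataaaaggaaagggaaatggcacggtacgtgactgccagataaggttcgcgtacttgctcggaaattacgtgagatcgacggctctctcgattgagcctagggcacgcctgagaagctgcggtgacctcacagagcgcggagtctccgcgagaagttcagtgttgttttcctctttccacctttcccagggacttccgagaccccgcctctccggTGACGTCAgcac
The heat shock element of HSF1, searched on both strands, was in 0.603% of all windows and in 0 of the members' windows. Matching letters are a description of these windows and not a measurement of binding.

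Atf4, the central transcription factor of the response (chromosome 15, 80255184 to 80257541, plus strand, GRCm38), was detected in 342 of the 360 cells. Its level was 606 CPM (interval 536 to 682) in the 37 °C arm before heating and 624 CPM (519 to 743) in the 45 °C arm before heating. In the 37 °C arm it was then 857, 500.5, 502 and 463 CPM at 1, 5, 10 and 15 h. In the 45 °C arm it was 599.9, 313, 429 and 268 CPM at the same times. The heated groups at 5, 10 and 15 h were all below the lowest unheated group, 463 CPM.

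Against the control of the same time, the log2 ratio of Atf4 was -0.51 (interval -0.75 to -0.28) at 1 h, -0.68 (-0.94 to -0.40) at 5 h, -0.23 (-0.56 to 0.12) at 10 h and -0.79 (-1.08 to -0.49) at 15 h. The control at 1 h was itself the highest of the 10 groups, and against the whole 37 °C arm the 1 h value was 0.00 (-0.20 to 0.19). The values at 5 and 15 h were -0.94 and -1.16 against the whole 37 °C arm, and -1.00 and -1.22 against the 45 °C arm before heating. Single cells overlapped widely. At 5 h, the lowest, median and highest cell had 107.7, 484 and 871.5 CPM at 37 °C and 0, 260 and 1357 CPM at 45 °C. At 15 h they had 204.1, 422 and 1289 CPM at 37 °C and 0, 243 and 735 CPM at 45 °C. Without 1 control cell of 5 h (cell 1) the 5 h ratio was -0.33. Ordered by level, neighbouring groups differed beyond counting error at 2 places: between 37 °C 1 h and the next group, 45 °C before heating, and between 45 °C 10 h and 45 °C 5 h.

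**Figure D1:**
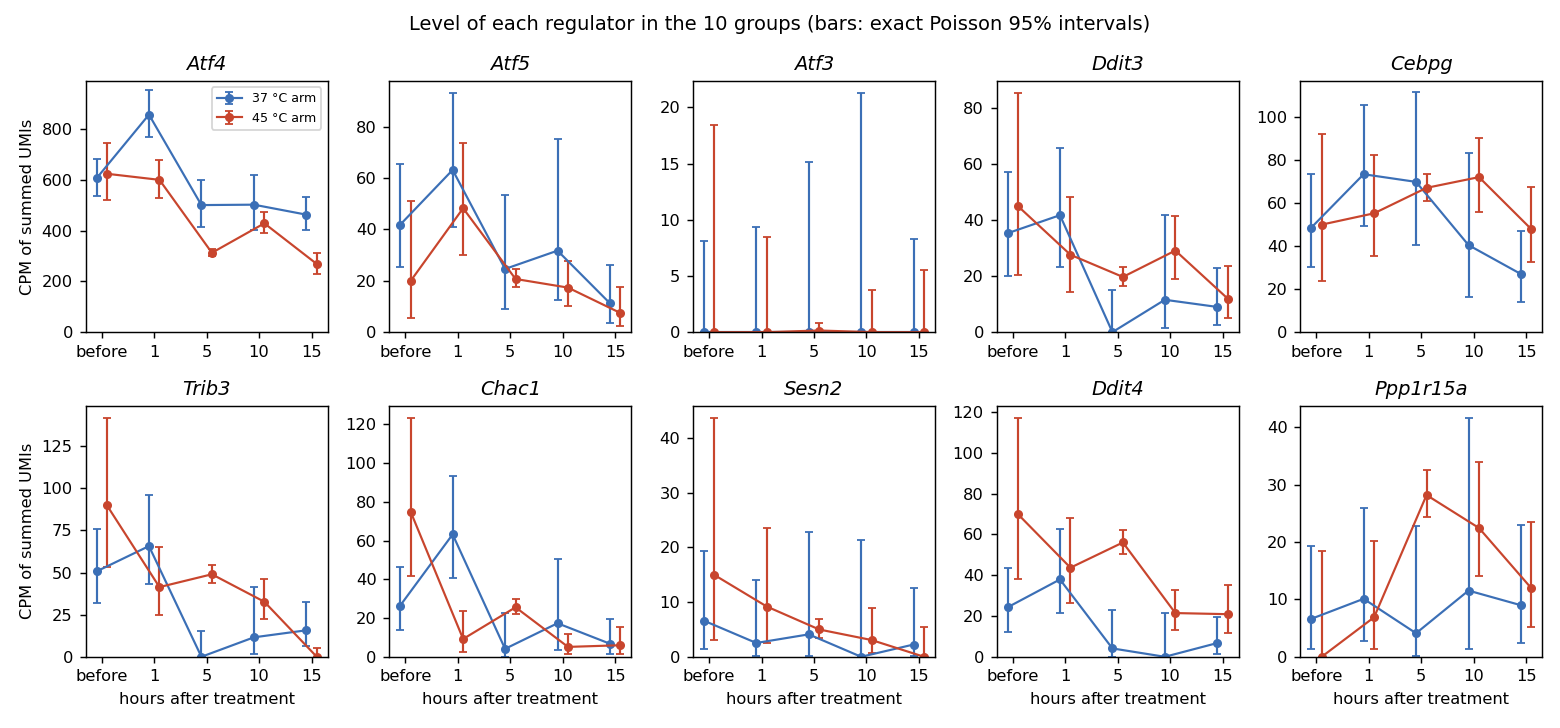
Level of each of the 10 regulators in the 37 °C arm (blue) and the 45 °C arm (red). The y axis gives CPM of summed UMIs, the x axis the time before or after treatment in hours, and bars are exact Poisson 95% intervals. Atf4 at 45 °C lies at 268 to 429 CPM from 5 h on, below all unheated groups, and Ppp1r15a at 45 °C peaks at 28.2 CPM at 5 h.

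Atf5 and Cebpg encode bZIP factors of the same family as ATF4 or its partners. ATF5, like ATF4, is controlled through upstream reading frames. Atf5 (chromosome 7, 44812256 to 44816658, minus strand) was at 41.9, 63.2, 24.6, 31.7 and 11.2 CPM in the 37 °C arm, in order of time, and at 19.96, 48.3, 20.7, 17.3 and 7.46 CPM in the 45 °C arm. Both arms thus had their highest level at 1 h and their lowest at 15 h, and every same-time interval included 0. Nup62 and Il4i1 overlap Atf5 on the opposite strand, and whether the counting used strand is not given in the sources used here.

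Cebpg, which encodes the C/EBP partner of ATF4 (chromosome 7, 35046422 to 35056573, minus strand), was at 48.5, 73.3, 69.7, 40.4 and 26.96 CPM at 37 °C and at 49.9, 55.2, 66.97, 71.9 and 47.7 CPM at 45 °C. Its same-time ratios were -0.40 at 1 h, -0.10 at 5 h, 0.74 (-0.30 to 2.19) at 10 h and 0.79 (-0.17 to 1.92) at 15 h. The 37 °C level was lowest at 15 h and the 45 °C level at 15 h was near that before heating, a ratio of -0.11 within the heated arm. At 5 h the sign depended on the scaling, with 0.04 under median-of-ratios size factors. Atf3, a stress-induced bZIP repressor, had 1 UMI in 1 of the 360 cells, a 45 °C 5 h cell. In the other 9 groups it was at 0, and 3 UMIs over a group, the floor used for a count of 0, would be 3.06 CPM in the deepest of these (45 °C 10 h) and 17.3 CPM in the shallowest (37 °C 10 h).

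Ddit3, which encodes the pro-apoptotic factor CHOP (chromosome 10, 127290774 to 127296288, plus strand), was at 35.2, 41.7, 0, 11.5 and 8.99 CPM at 37 °C and at 44.9, 27.6, 19.7, 29.1 and 11.9 CPM at 45 °C. It was seen in 30.9% of heated cells at 5 h (69 cells, exact interval 24.9 to 37.5%) and in 0 of 6 control cells. The control was at 0, so the 5 h value was taken over the floor of 3 UMIs over the group, 1.599-fold higher. The interval of its log2 ratio began at 0.36. Yet 19.7 CPM was less than the 22.5 CPM of the whole 37 °C arm (ratio -0.21, -0.70 to 0.39) and less than the 44.9 CPM before heating (-1.26, -2.16 to -0.03). One cell of 45 °C 5 h reached 404.5 CPM. GENCODE has 2 overlapping models of Ddit3, and Mars and a noncoding gene overlap it on the opposite strand.

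Trib3, a pseudokinase that binds ATF4 and CHOP and restrains them (chromosome 2, 152337422 to 152344032, minus strand), was at 0 in 1 group of each arm. At 37 °C it was at 50.7, 65.7, 0, 11.5 and 15.7 CPM, and at 45 °C at 89.8, 41.4, 48.98, 32.7 and 0 CPM. At 5 h it was present in 58.3% of heated cells (130 cells, exact interval 51.5 to 64.8%) and in 0 of 6 control cells (upper bound 45.9%). Its level was 3.98-fold higher over the floor, with the interval of the log2 ratio beginning at 1.69. Against the whole 37 °C arm the 5 h ratio was 0.52 (0.13 to 0.96), and against the 45 °C arm before heating -0.91 (-1.56 to -0.10), so the direction depended on which unheated cells were the reference. By 15 h, 0 of 21 heated cells had a Trib3 UMI (upper bound 16.1%). With the floor in place of that 0 count, Trib3 was 20.1-fold lower than before heating in the same arm. It was 7.57-fold lower than the whole 37 °C arm and 3.51-fold lower than the 7 UMIs of the 37 °C 15 h cells. The intervals of these log2 ratios ended at -3.88, -2.58 and -1.12. The pairs with the 37 °C 15 h cells and with the 18 UMIs before heating were under the filter of 20 UMIs together.

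Chac1, which encodes an enzyme that degrades glutathione (chromosome 2, 119351229 to 119354381, plus strand), stood apart at 1 h. It was at 26.4, 63.2, 4.10, 17.3 and 6.74 CPM at 37 °C and at 74.9, 9.19, 25.6, 5.10 and 5.97 CPM at 45 °C. At 1 h it had 4 UMIs in 2 of 13 heated cells and 25 UMIs in 6 of 11 control cells, a log2 ratio of -2.64 (-4.76 to -1.25). With any single cell left out this ratio stayed between -3.38 and -2.23. The control at 1 h was high, and against the whole 37 °C arm the ratio was -1.33 (-3.42 to -0.03). The heated level was higher again at 5 h, with a ratio of 1.31 (0.09 to 3.37) over 1 h, and lower at 10 h, with a ratio of -2.19 (-3.97 to -1.07) over 5 h. The same-time 5 h ratio, 2.06 (0.14 to 7.95), rested on 1 control UMI. It was -0.02 against the whole 37 °C arm and -1.59 against the 45 °C arm before heating.

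Ddit4 and Sesn2 encode inhibitors of the growth kinase complex mTORC1. Ddit4 (chromosome 10, 59949669 to 59951834, minus strand) was at 24.2, 37.9, 4.10, 0 and 6.74 CPM at 37 °C and at 69.9, 43.7, 56.03, 21.4 and 20.9 CPM at 45 °C. At 5 h it had 381.5 UMIs in 54.7% of heated cells and 1 UMI in 1 of 6 control cells, a ratio of 3.19 (1.29 to 9.08). Against the whole 37 °C arm the ratio was 1.65 (1.14 to 2.27), and against the 45 °C arm before heating -0.37 (-1.08 to 0.57). The 45 °C arm before heating was in fact the highest of the 10 groups, so the 5 h level exceeded the 37 °C groups but not every unheated group. That highest level leaned on 1 of 6 cells, which held 9 of the 14 Ddit4 UMIs. Without cell 6 of that group, the Ddit4 ratio between the arms before heating was 0.45 in place of 1.51. Sesn2 had 50 UMIs in all cells and at most 14.97 CPM in any group. It was at 4.99 CPM in 45 °C 5 h and at 0 in the 21 cells of 45 °C 15 h, where 3 UMIs would be 4.47 CPM, and its same-time pairs were all under the filter.

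Ppp1r15a encodes GADD34, the stress-induced subunit that directs phosphatase to eIF2 and so ends the response (chromosome 7, 45522916 to 45526268, minus strand). It was at 6.61, 10.1, 4.10, 11.5 and 8.99 CPM at 37 °C, and at 0, 6.90, 28.2, 22.5 and 11.9 CPM at 45 °C. At 5 h it was seen in 42.2% of heated cells (94 cells, exact interval 35.6 to 48.9%). The highest unheated share was that of 37 °C 1 h, 4 of 11 cells (36.4%, exact interval 10.9 to 69.2%), which overlaps it. All 6 unheated groups together had 14 UMIs of it. The 5 h ratio was 2.20 (0.29 to 8.09) over the single UMI of the 5 h control and 1.74 (1.00 to 2.68) over the whole 37 °C arm. Over the floor for the 45 °C arm before heating, which was at 0, the 5 h level was 1.88-fold higher, with the interval of the log2 ratio beginning at 0.60. At 10 h the ratio over the whole 37 °C arm was 1.44 (0.43 to 2.54). The 15 h level, 11.9 CPM, was next to the highest unheated group, 11.5 CPM, within counting error. Tulp2 overlaps Ppp1r15a on the opposite strand.

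The same-time counts of members past 2-fold differed between times. Before heating, when neither arm had been treated, 2 of 7 measured members (at least 20 UMIs in the pair and 10 CPM in the higher group) were at least 2-fold higher in the 45 °C arm, Chac1 and Ddit4, and 0 were 2-fold lower. Among all measured genes, 2.61% were that much higher and 4.52% lower. At 1 h, 0 of 7 were 2-fold higher and 1, Chac1, was 2-fold lower, with 1.44% and 6.32% of all genes. At 5 h, 4 of 8 were 2-fold higher, namely Trib3, Chac1, Ddit4 and Ppp1r15a, and 0 lower, with 4.9% and 15.3% of all genes. At 10 h, Ddit3 and Trib3 of 7 were 2-fold higher and 0 lower, with 10.8% and 7.25% of all genes. At 15 h, 2 members, Atf4 and Cebpg, were measured, and 0 were past 2-fold either way, with 4.05% and 2.21% of all genes. The median ratio of the measured members was 0.38 before heating, -0.51 at 1 h, 1.33 at 5 h (2.13 with 0.5 UMI in place of the floor), 0.67 at 10 h and 0.00 at 15 h. Over all measured genes the median was 0.01, -0.14, -0.23, 0.00 and -0.02. A member had to be well counted in at least 1 group to be measured, so these counts describe the measured members and not all 10. With 0 or 1 control UMI at 5 h, Ddit3, Trib3, Chac1, Ddit4 and Ppp1r15a passed the filter only through the heated group. Such members could be measured only if higher after heating, so the filter set their direction, and with it much of the 5 h median. The same held at 10 h for Ddit3, Trib3, Ddit4 and Ppp1r15a, with 0 or 2 control UMIs. At 1 h Chac1, at 9.19 CPM after heating, could in turn be measured only if lower.

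Measured against every unheated group, fewer members stood apart at 5 h. Of the 8 measured, 1 was above all 6 unheated groups, Ppp1r15a, where 7.35% of all genes were, and 1 was below them, Atf4, where 18.5% of all genes were. At 10 h the same held for Ppp1r15a, with 21.6% of all genes above, and for Atf4, with 15.3% below. At 1 h, 0 of 7 measured members were above and 0 below all unheated groups, with 9.2% and 16.7% of all genes. At 15 h Atf4 alone of the 2 measured was below, with 13.3% of all genes below and 15.8% above.

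The 37 °C arm itself differed over the 15 h. At 1 h all 7 measured members were higher than before treatment, with a median ratio of 0.59. Of these, Chac1 (1.23, 0.21 to 2.38) was at least 2-fold higher and 0 were 2-fold lower, where 2.78% and 2.29% of all genes were. At 5 h Trib3, at 0 and set to the floor, was 4.12-fold lower than before treatment, with the interval of the log2 ratio ending at -1.63. It was the 1 of 4 measured members past 2-fold lower, and 0 were higher, where 5.51% and 2.75% of all genes were. At 10 h Trib3 (-1.84, -5.26 to -0.12) was again the 1 of 4 past 2-fold lower, with 0 higher, where 5.49% and 3.2% of all genes were. At 15 h all 5 measured members were lower, with a median of -1.62. Atf5 (-1.80), Ddit3 (-1.85) and Trib3 (-1.62) were at least 2-fold lower and 0 were higher, where 3.22% and 2.72% of all genes were. With 5, 4 and 7 UMIs at 15 h, they passed the filter only through the cells before treatment. They could be measured only if lower, so the filter set their direction, and with it much of the median. The same held for Trib3 at 5 and 10 h, with 0 and 2 UMIs.

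At 5 h the controls were 6 cells with 243774 UMIs, so each UMI was 4.10 CPM. Of the 9 regulators with more than 1 UMI in the series, 6 had 0 or 1 UMI there (Ddit3, Trib3, Chac1, Sesn2, Ddit4 and Ppp1r15a). The same 6 had between 0 and 3 UMIs in the 10 h controls.

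A reference of all 37 °C cells, 45 cells with 1711780 UMIs, gave other counts. On it, 4 of 7 measured members (Ddit3, Trib3, Chac1 and Ddit4) were at least 2-fold higher in the 45 °C arm before heating and 0 lower, where 4.8% and 5.55% of all genes were. At 1 h Ddit4 (1.33, 0.41 to 2.19) was the 1 of 7 past 2-fold higher and Chac1 the 1 past 2-fold lower, where 1.45% and 8% of all genes were. Of the 19 Ddit4 UMIs at 1 h, 10 were in 1 of the 13 heated cells. At 5 h Ddit4 and Ppp1r15a of 8 were at least 2-fold higher and 0 lower, where 2.48% and 8.87% of all genes were. At 10 h Ppp1r15a was the 1 of 8 past 2-fold higher and Chac1 (-2.21, -4.02 to -1.00) the 1 past 2-fold lower, where 6.43% and 5.58% of all genes were. At 15 h 0 of 8 were 2-fold higher, and Atf4, Atf5 (-2.12), Trib3 and Chac1 (-1.95) were at least 2-fold lower, where 4.01% and 2.87% of all genes were. On this reference Ppp1r15a and Ddit4 were the regulators past 2-fold at 5 h, both higher, and 4 were past it at 15 h, all lower. Some of these directions were set by the filter. Ppp1r15a, at 8.18 CPM in the whole 37 °C arm, could be measured at 5 and 10 h only if higher. Chac1 at 1, 10 and 15 h, and Atf5 and Trib3 at 15 h, were under 10 CPM after heating and could be measured only if lower.

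**Figure D2:**
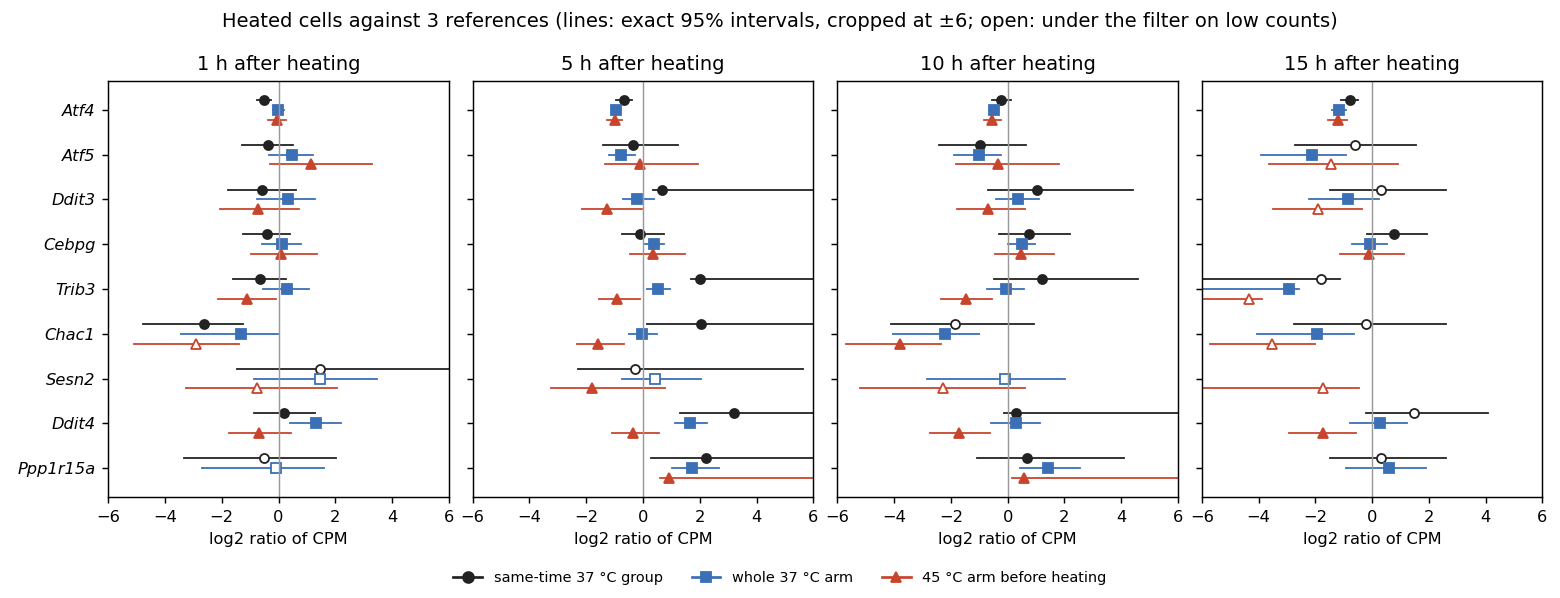
Log2 ratio of CPM in heated cells by time over 3 references, for the 9 regulators with more than 1 UMI. Black circles are the 37 °C group of the same time, blue squares the whole 37 °C arm, and red triangles the 45 °C arm before heating. Lines are exact 95% intervals, cropped at the axis limits, open symbols mark pairs under the filter, and a pair with no symbol had a group at 0 and the other at or under the floor. At 5 h Trib3, Chac1 and Ddit4 lie right of 0 against the same-time control and left of it against the 45 °C arm before heating, while Ppp1r15a lies right of 0 and Atf4 left of 0 against all 3.

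Within the heated arm the regulators did not follow one course. Against the 45 °C cells before heating, Atf5 (1.14, -0.29 to 3.28) was the 1 of 6 measured members at least 2-fold higher at 1 h and Trib3 (-1.12, -2.15 to -0.09) the 1 at least 2-fold lower, where 2.67% and 5.43% of all genes were. Chac1, with 4 UMIs at 1 h and 15 before heating, was lower still (-2.90, -5.07 to -1.38) but under the filter. At 5 h, 0 of 9 were 2-fold higher and 4 were 2-fold lower (Atf4, Ddit3, Chac1 and Sesn2), where 4.11% and 17.4% of all genes were. The Sesn2 ratio (-1.79, -3.25 to 0.76) rested on 3 UMIs before heating, and its interval included 0. At 4.99 CPM after heating, Sesn2 could be measured only if lower. At 10 h, 0 of 8 were 2-fold higher and 3 were 2-fold lower (Trib3, Chac1 and Ddit4), where 9.98% and 6.93% of all genes were. At 15 h, 0 of 3 were 2-fold higher and 2 were 2-fold lower (Atf4 and Ddit4), where 8.02% and 4.87% of all genes were. Chac1 at 10 h (5.10 CPM) and Ddit4 at 15 h (14 UMIs) likewise could be measured only if lower.

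From one time to the next, Chac1 and Ppp1r15a (1.81, 0.46 to 4.32) of 8 measured were at least 2-fold higher at 5 h than at 1 h and Atf5 (-1.25) was 2-fold lower, where 6.02% and 8.19% of all genes were. From 5 to 10 h, 0 of 8 were 2-fold higher, and Chac1 and Ddit4 (-1.35, -2.10 to -0.76) were 2-fold lower, where 14.1% and 2.33% of all genes were. Chac1 and Ppp1r15a at 1 h, and Chac1 at 10 h, were under 10 CPM, so the filter set the direction of their calls. From 10 to 15 h all 7 measured members were lower (median -0.86, beside -0.01 over all genes). Of these, Atf5, Ddit3 and Trib3 were at least 2-fold lower, and 0 were 2-fold higher, where 3.88% and 4.6% of all genes were. With 5, 8, 0 and 8 UMIs at 15 h, Atf5, Ddit3, Trib3 and Ppp1r15a passed the filter only through the 10 h group. They could be measured only if lower, so the filter set their direction, and with it much of the median. Within the heated arm Trib3 and Chac1 had their highest level before heating, beyond the counting error of the next, 5 h. Ddit4 was also highest before heating, Ppp1r15a at 5 h and Cebpg at 10 h, each within counting error of the next level.

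Cells of one group differed greatly from each other. At 5 h after heating, the median cell had 30.6 CPM of Trib3 and the highest 290 CPM. For Ddit4 the median was also 30.6 CPM and the highest cell 528 CPM. For Chac1 and Ppp1r15a the median cell had 0, and the highest had 347 and 333 CPM. The median cell of 45 °C 5 h had UMIs of 5 of the 10 regulators, and 3 cells had none. Detection moved with depth. With every cell thinned to 5000 UMIs, which left out 1 cell of 45 °C 5 h and 5 of 45 °C 10 h, the share with a UMI at 45 °C 5 h was 72.5% for Atf4 (96.4% unthinned), 18.02% for Trib3 (58.3%), 19.4% for Ddit4 (54.7%), 11.7% for Chac1 (35.4%) and 10.8% for Ppp1r15a (42.2%). At the same depth, Atf4 was seen in all 6 control cells of 5 h, and Trib3, Chac1 and Ppp1r15a in 0 of 6, which allows up to 45.9%. Ddit4 was seen in 1 of 6 (16.7%, exact interval 0.421 to 64.1%), next to 19.4% in heated cells.

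**Figure D3:**
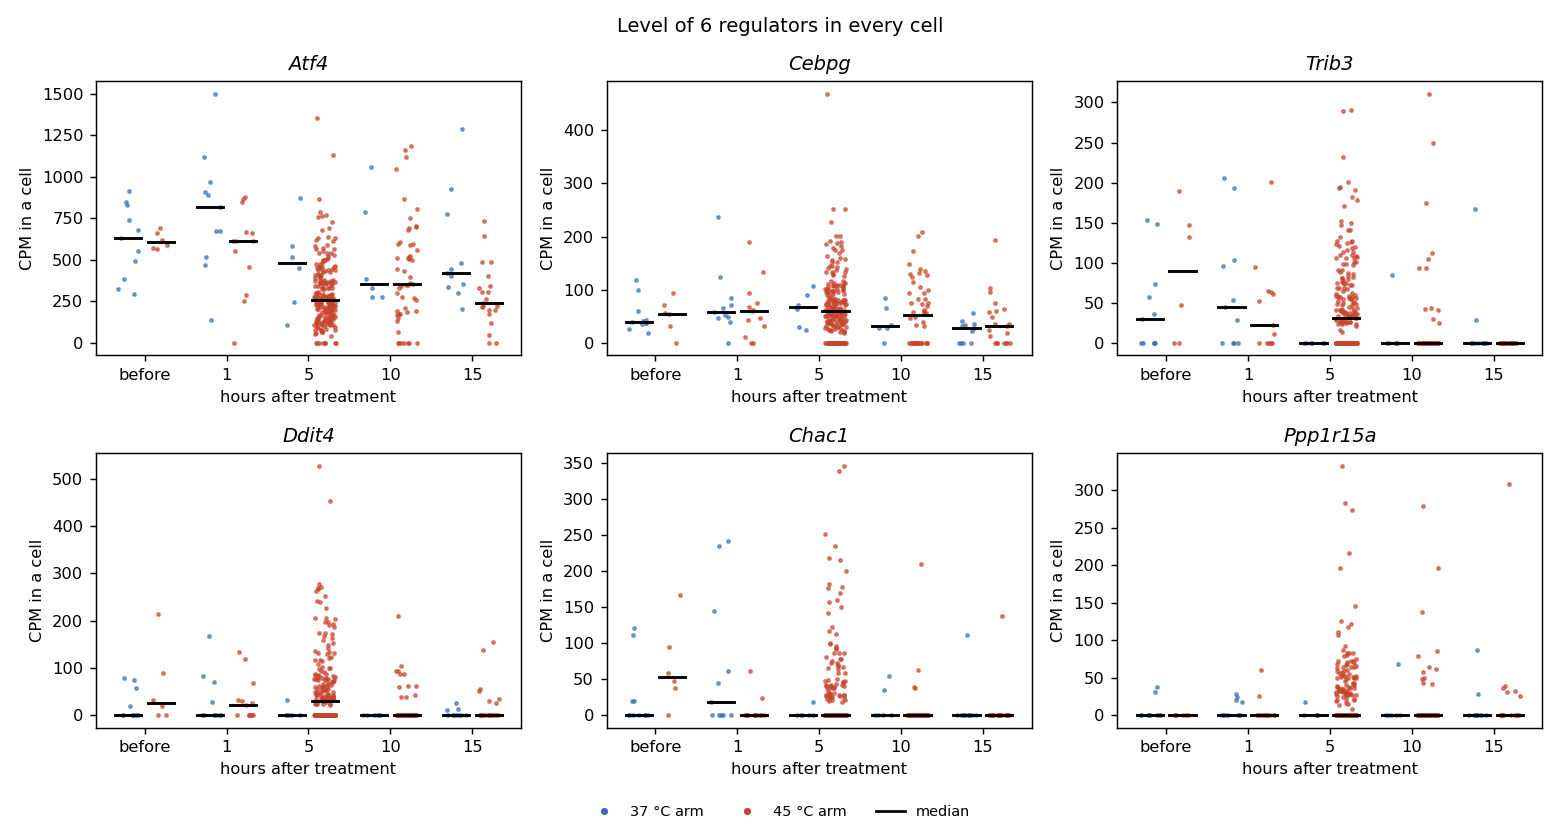
CPM of 6 regulators in each single cell, by time in hours and arm (blue 37 °C, red 45 °C), with the median of each group as a black bar. Each point is 1 cell, and the 45 °C 5 h group holds 61.9% of them. Most cells of Chac1 and Ppp1r15a lie at 0 in every heated group, with single cells up to 347 and 333 CPM.

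The cells of 45 °C 5 h were numerous enough to describe which regulators varied together. Of the 10, Atf4, Cebpg, Trib3 and Ddit4 had a UMI in at least 50% of these cells. Among the 4452 genes seen that often, the gene with the highest Spearman rho of CPM with Atf4 was Trib3 (rho 0.39), followed by Mthfd2 (0.35), a mitochondrial folate enzyme, and Hspa5 (0.34), the endoplasmic reticulum chaperone BiP. The median gene had a rho of 0.06 with Atf4. For Trib3 the first was in turn Atf4, then Pck2 (0.36), a mitochondrial enzyme of gluconeogenesis, then Ddit4 (0.33). For Ddit4 the first was Trib3, followed by Srebf1 (0.27) and Tsc22d3 (0.26). Cebpg kept apart from Trib3 and Ddit4, with a rho of 0.01 and 0.04. With Atf4 its rho was 0.15, and that of Ddit4 with Atf4 was also 0.15. The nearest genes of Cebpg were Kti12 (0.26), Josd1 (0.24) and Arih2 (0.23).

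All points share 1 group and differ in depth: the CPM of Atf4, Trib3 and Ddit4 had a rho of 0.23, 0.25 and 0.17 with the total UMIs of the cell. In the 180 cells with at least 20000 UMIs, thinned to that number, Atf4 and Trib3 were again the first of 3605 genes for each other (rho 0.33), and Trib3 and Ddit4 had 0.31. Thinned to 5000 UMIs, with 1 cell left out, the values were 0.16 and 0.04. At that depth Trib3 was detected in 18.02% of cells.

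Among the wider set of amino acid genes under ATF4, more had high values with Trib3 than with Atf4. Of 16 ATF4 metabolic targets seen often enough, 11 had a rho with Trib3 above 0.17, the 95th percentile over all genes, from Pck2 (0.36) down, and their median was 0.21. Of 12 tRNA synthetase and export genes, 6 were above it, led by Gars (0.29). Of 11 HSF1 chaperone targets, 0 were above it, and their median was -0.09, with Hsp90aa1 lowest at -0.15. With Atf4, 6 of 16, 5 of 12 and 0 of 11 were above its 95th percentile of 0.19. At 20000 UMIs per cell the counts were 7 of 16, 7 of 12 and 0 of 11 with Trib3, but 2 of 16, 0 of 12 and 0 of 11 with Atf4. At 5000 UMIs per cell the medians with Trib3 were 0.02, 0.04 and -0.04. Weak values in sparse counts are given as a description only.

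**Figure D4:**
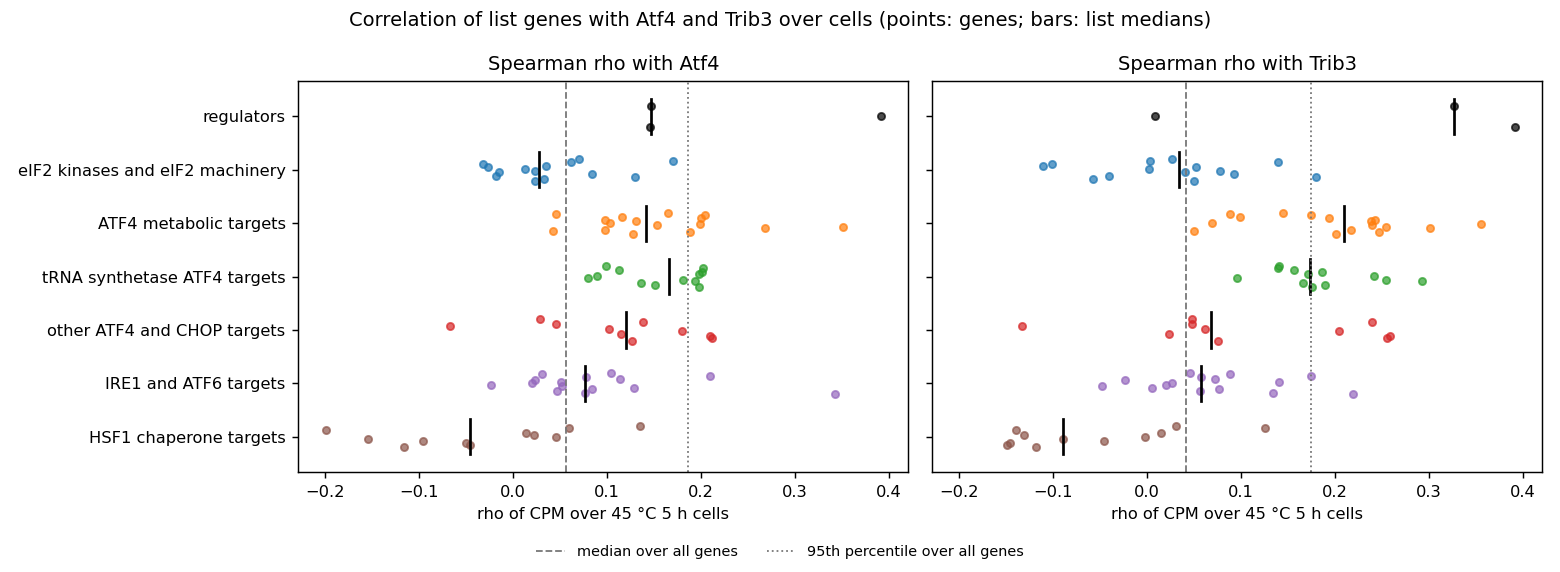
Spearman rho of CPM with Atf4 (left) and with Trib3 (right) over the cells of 45 °C 5 h, for the genes of each list seen in at least 50% of those cells. Each point is 1 gene, the black bar is the list's median, and the grey lines mark the median and the 95th percentile over 4452 genes. The ATF4 metabolic targets have a median of 0.21 with Trib3 and the HSF1 chaperone targets one of -0.09.

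The lists of other pathway genes give the setting in the group sums. Beside them, 4.9% of all measured genes were at least 2-fold higher and 15.3% lower at 5 h than the same-time control, with a median ratio of -0.23. Of the eIF2 kinases and eIF2 machinery, 18 of 19 were measured at 5 h, 9 higher and 9 lower than the same-time control, with a median ratio of -0.01. The largest was Ppp1r15b, the constitutive counterpart of Ppp1r15a that also directs phosphatase to eIF2. It was at 195.99, 175.5 and 132.7 CPM in the heated groups of 5, 10 and 15 h and at 57.7 to 124.8 CPM in unheated groups, and its 5 h ratio was 1.02 (0.46 to 1.72). Like Ppp1r15a it was above every unheated group at 5 and 10 h, where 7.35% and 21.6% of all genes were. Of the same list, Eif2b2 and Eif2ak3 were also above every unheated group at both times. The catalytic subunits Ppp1ca, Ppp1cb and Ppp1cc were above at neither time. The smallest was Impact, an inhibitor of the kinase GCN2, at -2.24 (-3.31 to -0.76). That 5 h control, at 28.7 CPM, was its highest group, with 0 to 11.5 CPM in the other unheated groups, and the heated 6.46 CPM was above the 4.99 CPM of the 45 °C arm before heating.

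ATF4 metabolic targets were 16 higher and 2 lower of 18 measured at 5 h against the same-time control (median 0.33, 3 past 2-fold higher), but 9 and 9 against the whole 37 °C arm (median 0.01, 0 past 2-fold, beside -0.24 over all genes). Gpt2, an alanine transaminase, was the largest at 1.81 (-0.11 to 7.70), with 1 UMI in the control. Slc7a11, the cystine importer, was the smallest at -0.97 (-1.37 to -0.53). At 15 h 0 of 16 were higher and 16 lower (median -0.57, beside -0.02 over all genes). Mthfd2 was then at 92.5 CPM against 243 CPM, a ratio of -1.39 (-1.87 to -0.93).

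The tRNA synthetase genes followed a similar course, with 10 of 12 higher at 5 h (median 0.34) and 11 of 12 lower at 15 h (median -0.23). Over all genes the medians were -0.23 at 5 h and -0.02 at 15 h. Iars, the isoleucyl-tRNA synthetase, was the largest at 5 h, 1.10 (0.53 to 1.81), at 198.04 CPM against 90.2 CPM, while the whole 37 °C arm was at 201.8 CPM. Against the whole 37 °C arm the list's medians were 0.15 at 5 h and -0.71 at 15 h, beside -0.24 and 0.01 over all genes. Atf4, with a ratio of -0.94 at 5 h and -1.16 at 15 h on that reference, was lower at both times.

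Other ATF4 and CHOP targets were 7 higher and 5 lower of 12 at 5 h (median 0.50), led by Bbc3, which encodes the cell death protein PUMA, at 40.1 CPM against 4.10 CPM (1 UMI), a ratio of 2.71 (0.80 to 8.60). Over the whole 37 °C arm its ratio was 1.68 (1.07 to 2.42). Sqstm1, an autophagy receptor also under other stress factors, led at 10 h with 428 CPM against 17.3 CPM, a ratio of 4.41 (3.07 to 6.91). That control was 3 UMIs and the lowest unheated group, and over the whole 37 °C arm, at 70.1 CPM, the ratio was 2.60 (2.31 to 2.91). IRE1 and ATF6 targets were 3 higher and 14 lower of 17 at 5 h (median -0.36). Within that list, Herpud1, a protein of endoplasmic reticulum degradation, was at 2.21 (1.02 to 4.26), or 1.06 (0.71 to 1.45) over the whole 37 °C arm, and Hspa5 at -1.26 (-1.47 to -1.04). HSF1 chaperone targets were 12 higher and 1 lower of 13 (median 0.93), led by Bag3 at 3.29 (2.34 to 4.71). Hspa1a was at 93.9 CPM in 45 °C 5 h and at 0 in every 37 °C group, so its same-time ratio was limited by the floor of 12.3 CPM.

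**Figure D5:**
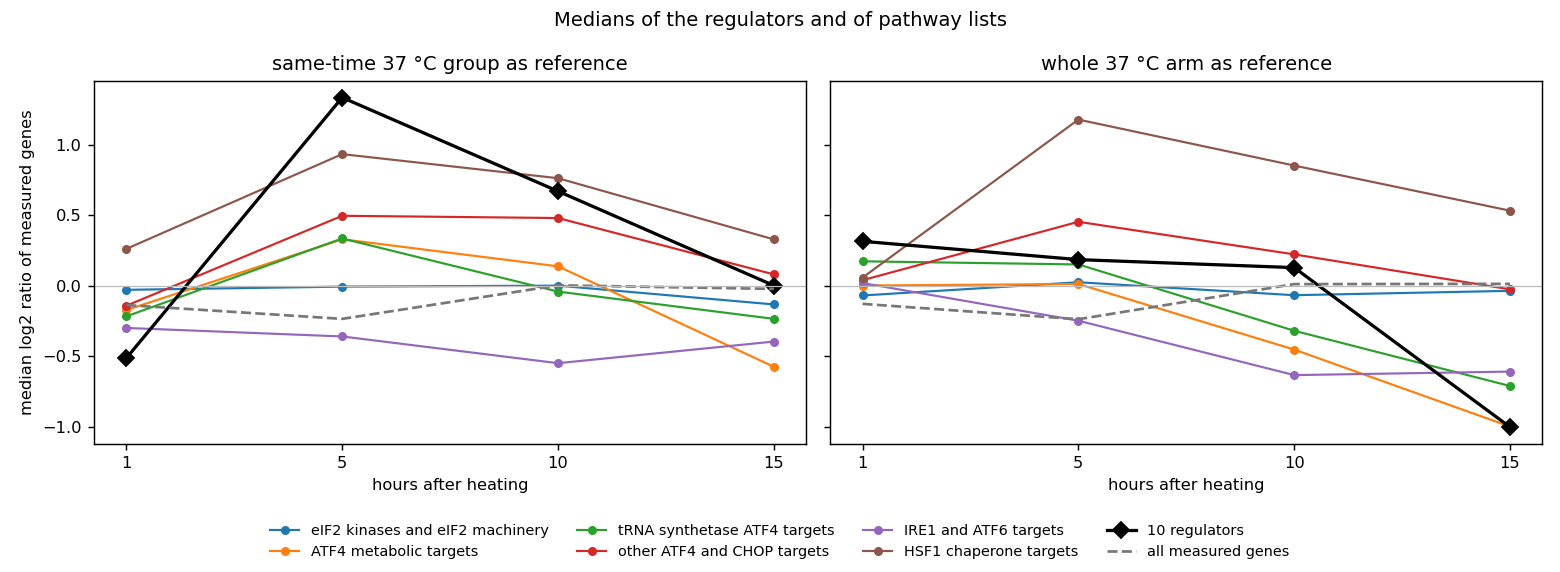
Median log2 ratio of the measured genes of each list by time after heating (x axis, hours), against the same-time 37 °C group (left) and the whole 37 °C arm (right). Black diamonds are the measured members of the 10 regulators and the grey dashed line is the median over all measured genes. The regulators' median at 5 h is 1.33 on the left and 0.19 on the right, while that of the HSF1 chaperone targets is 0.93 and 1.18.

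Over the 10 groups, the genes whose levels moved most like a regulator were named by the Pearson r of log2(CPM + 10), among 4659 genes with at least 50 CPM in a group. Points are 10 groups of very unequal depth, and the 3 highest of so many values are large by selection. For Trib3 these were Arl14ep (0.95), Iars (0.94) and Cars (0.92), the latter both tRNA synthetases. For Atf4 they were Lrrc58 (0.91), Ifrd1 (0.89) and Farsb (0.89), for Atf5 Gars (0.91), Hacd1 (0.87) and Mvb12a (0.86), and for Cebpg Peli1 (0.93), Cdc6 (0.90) and Mcm10 (0.84). For Chac1 they were Mrpl58 (0.93), Tacc1 (0.91) and Ccni (0.89), and for Ddit4 Cyfip2 (0.90), Lsm5 (0.88) and Atp5g2 (0.88).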

How the data were processed

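Poly(A) RNA of single picked cells was counted with molecular barcodes. The deposited table holds estimated counts of molecules per gene and cell, unscaled, and the submitters' processing notes name STAR and mm10 with no version. No source used here gives the counting program or its annotation. Of the values above 0, 5.30% were not whole, and these held 2.51% of the members' UMIs. Groups came from the treatment label (temperature and time). The planned rule treated each group as 1 sample, so no test was made.

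UMIs were summed per group and divided by the group total (CPM), and sums were rounded for exact Poisson intervals. Log2 ratios were taken after adding 0.5 UMI to each sum, with exact conditional binomial intervals. For a group at 0 the floor was 3 UMIs over the group. A gene was measured with at least 20 UMIs in the pair and 10 CPM in the higher group. Shares have exact Clopper-Pearson 95% intervals. PCR-amplified molecules were counted by barcode, and intervals and floors cover counting error only (of molecules for levels and ratios, of cells for shares).

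All 10 members are named. From each list the largest and smallest ratio and the gene with most UMIs may be named, and the 3 genes most like a member (predicted genes left out). The members and lists were chosen with earlier results of these data known. Coordinates are from GENCODE M21 (GRCm38) and promoters from RefSeq. Alternatives were other references, scaling, weighting, filters, fold, depth and leaving out each cell. Python 3.11.15, numpy 2.4.6, pandas 2.3.3, scipy 1.17.1 and matplotlib 3.10.9 were used, and the ratio code was tested on simulated data.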

Additional observations from a re-analysis of the deposited data

Results flagged for a closer look

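In groups of 6 cells, a cell was singled out where its gap to the nearest other cell exceeded the critical share of the group's range (Dixon's 95% value). Of 22 pairs of a member and a group tested, 8 held such a cell. The rate of about 1 in 20 by chance holds for continuous values, and a gene seen in 1 of 6 cells is always singled out, which was so for 6 of the 8. In the 45 °C group before heating, cell 4 had 141.98 CPM of Atf5 and 189.3 CPM of Ddit3. In the 37 °C 5 h group, cell 1 had 17.8 CPM each of Chac1, Sesn2 and Ppp1r15a, and cell 5 had 32.3 CPM of Ddit4. In this 37 °C group each of these was the only UMI of its gene. In the 37 °C 10 h group, cell 3 had 84.9 CPM of Trib3 and cell 6 had 68.6 CPM of Ppp1r15a, and both held all UMIs of the gene in that group. Without 37 °C 5 h cell 1 the 5 h ratios of Chac1 and Ppp1r15a were 0.68 and 0.82, without cell 5 that of Ddit4 was 1.99, and without 37 °C 10 h cell 3 the 10 h ratio of Trib3 was 0.70. For all 4 the control was then at 0 and the ratio was taken over the floor.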

How the results depend on the processing

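No paired analysis was possible because each group was 1 sample and cell numbers only count cells within a group. The choice of reference mattered most. Against the 45 °C arm before heating, the 5 h ratios were -0.91 for Trib3, -1.59 for Chac1 and -0.37 for Ddit4, all reversed, and the members' median was -0.91. For Ddit4, 1 of 6 cells held 9 of the 14 UMIs of that reference. At 10 h on that reference they were -0.68 for Ddit3 and -1.48 for Trib3, with a median of -0.61, and at 15 h the median was -1.22. Against the whole 37 °C arm, Chac1 was at -0.0206 at 5 h and Trib3 at -0.0431 at 10 h, both reversed, and the median was 0.19 at 5 h and -1.00 at 15 h. The cause was not tested.

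The number of members past 2-fold also moved. Before heating, 4 were higher against the whole 37 °C arm, 1 was lower at 1.5-fold, and leaving out 1 cell in turn gave 1 to 3 higher and 0 to 1 lower. For 1 h, 1 was higher against either other reference or with no filter, 2 were lower at 1.5-fold, and leaving out a cell gave 1 to 2 lower. For 5 h, 2 were higher against the whole 37 °C arm and 0 against the 45 °C arm before heating, where 4 were lower. Against the same-time control, 1.5-fold gave 1 lower, and leaving out a cell gave 2 to 4 higher (fewest without 37 °C 5 h cell 1). For 10 h, 1 was higher and 1 lower against the whole 37 °C arm, and 0 higher and 3 lower against the 45 °C arm before heating. Against the same-time control, the mean of cell CPM gave 0 higher and 1 lower, whole-number values gave 1 higher, no filter gave 1 lower, and 1.5-fold gave 4 higher and 1 lower. Leaving out a cell of 10 h gave 0 to 2 higher (fewest without 37 °C 10 h cell 1) and 0 to 1 lower. For 15 h, 4 were lower against the whole 37 °C arm and 2 against the 45 °C arm before heating, and no filter or 1.5-fold gave 1 higher and 1 lower against the same-time control. Among single ratios, 258 alternatives were labelled the same, 19 moved and 7 reversed. The same did not mean close, because values inside a wide interval could count as the same. Before heating, the Atf5 ratio of -0.94 (-3.08 to 0.52) became -2.36 without cell 4 of the 45 °C arm, and was labelled the same.

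Median-of-ratios scaling, which raised every 5 h ratio alike, gave -0.54 for Atf4 and 0.04 for Cebpg at 5 h. Adding 0.5 UMI with no floor and thinning to 20000 UMIs were chosen after seeing the data. The depth of the controls limits the 5 and 10 h ratios: 3 UMIs over the group were 12.3 and 17.3 CPM.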

Other observations

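3 genes of the lists were singled out after their values were seen. Gdf15, a secreted hormone under ATF4 and CHOP, and Cth, an enzyme of cysteine synthesis, were at 0 in all 10 groups. They were not alone in this, as Fgf21, Adm2, Jdp2 and Dnajb9 of the lists were also at 0 throughout. Cebpb, a C/EBP factor, was at 1.49 CPM at 45 °C 15 h, the worth of 1 UMI there. It was between 4.10 and 28.9 CPM in the unheated groups, with a ratio of -3.04 (-8.95 to -1.02) over the whole 37 °C arm.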
